A study of Mus musculus with 2 samples.

Results

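Pharyngeal foregut endoderm is the epithelial sheet that lines the front end of the gut tube. At the stage sampled here it lies between the heart and the hindbrain and begins to fold into the pharyngeal pouches, from which the thymus, the parathyroids and the lining of the middle ear later arise, whereas the thyroid buds from its floor. Its cells are recognised by factors shared by all gut endoderm (*Foxa1*, *Foxa2*), by a set of regional regulators (*Pax9*, *Nkx2-3*, *Tbx1*, *Isl1*) and by the ligands through which the sheet patterns its surroundings (*Shh*, *Fgf8*). It was sought among 18233 single cells of chimeric mouse embryos by a rule on 10 genes. A cell was taken when it held at least 5 spliced UMIs of *Epcam*, an adhesion molecule of epithelia, at least 1 of *Pax9*, a paired-box factor of the pouches, and 0 of *Dlx5*, a homeobox factor of the surface ectoderm. The 4 visceral endoderm transcripts *Apoa1*, *Ttr*, *Rbp4* and *Afp* together had to stay below 2% of its spliced UMIs, and the 3 embryonic globin transcripts *Hba-x*, *Hbb-bh1* and *Hbb-y* below 0.5%. A UMI, or unique molecular identifier, marks 1 captured transcript. The rule took 351 cells, of which 170 were among the 8981 cells of the tdTom+ library and 181 among the 9252 cells of the tdTom- library. They are called gated cells here, and wherever 2 values are joined by "and", that of tdTom+ stands first.

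The 2 libraries came from the same pool of 6 chimeric embryos. The tdTom+ cells descend from male mouse embryonic stem cells (ESCs) that carry a constitutive tdTomato reporter and a 38 bp deletion in exon 4 of *Gata1*, the X-linked master regulator of the erythroid lineage, and they come from 1 clone. The tdTom- cells descend from the wildtype C57BL/6 blastocysts into which the clone was injected. The embryos were harvested at E8.5, which is also the age on the tdTom+ label, whereas the tdTom- label reads E8.6. With 1 library per fraction there is no replicate, so no test was made between the fractions and no p-value is given. Deletion, clone, ESC origin and sex of the line differ between the fractions together and cannot be told apart. The intervals given are exact 95% intervals that cover counting error only.

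In depth and mitochondrial share the gated cells lay near the other cells. Their median was 16337 and 14317 spliced UMIs per cell, against 17611 and 16022 in all other cells, with ranges from 4052 to 62836 and from 3976 to 49625. Summed over cells they held 3047412 and 2751083 spliced UMIs, and the median cell showed 4143.5 and 3889 genes. The median mitochondrial share was 2.01% and 1.96%, against 2.07% and 2.08% elsewhere. Doublet calling with Scrublet marked 4.09% of tdTom+ and 5.73% of tdTom- cells, and 14 of 170 (8.24%) and 6 of 181 (3.31%) of the gated cells, so in tdTom+ the gated share was above that of its library. Of the cell barcodes, 18 occurred in both libraries, 1 of them on a tdTom+ gated cell, none on a tdTom- gated cell and none on a gated cell in both.

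*Gata1* itself was close to 0 in these cells. It gave 1 spliced UMI among the tdTom+ gated cells and 5 among the tdTom- ones, or 0.328 and 1.82 CPM (UMIs of the gene per 1000000 summed spliced UMIs), against 6.85 and 29.8 CPM in all other cells. Unspliced UMIs of *Gata1* numbered 3 and 0. At this depth a difference in spliced *Gata1* was not detectable within the gate, since the interval of the log2 fold ran from -8.03 to 0.69.

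The values behind the rule set the edges of the gate. *Epcam* alone left 1133 and 1191 cells, *Pax9* reduced them to 178 and 199, *Dlx5* to 173 and 193, the visceral limit to 173 and 193, and the globin limit to 170 and 181. *Pax9* was the thin edge: 68 and 73 gated cells held a single *Pax9* UMI, 37 and 36 held 2, and 65 and 72 held at least 3. Cells with exactly 5 *Epcam* UMIs numbered 6 and 4 inside the gate, and 6 and 4 cells with exactly 4 missed it on that count alone. The highest globin share inside was 0.229% and 0.480%, and the nearest cell outside stood at 0.656% and 1.41%. The highest visceral share inside was 0.296% and 0.451%, and no cell missed the gate on that limit alone. These values chose the cells and are given as a description.

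The share of gated cells was alike in the fractions. It was 1.89% (1.62 to 2.20) of tdTom+ cells and 1.96% (1.68 to 2.26) of tdTom- cells, a gap smaller than either interval. A shallower cell passes a rule on whole UMIs less easily, and the tdTom- cells were the shallower.

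The label held for a part of the gated cells only. Of the fixed markers, *Nkx2-3*, a homeobox factor of the pharyngeal floor, stood at 131 and 164 CPM against 10.2 and 6.83 CPM in all other cells. *Spink1*, a secreted trypsin inhibitor, stood at 364 and 403 CPM against 32.5 and 69.1, and *Pyy*, the gut hormone peptide YY, at 352 and 158 against 34.1 and 10.4. All 3 were therefore above the rest of the embryo taken as a whole in both fractions, but not above each of its parts: on the visceral endoderm side (3 and 38 cells) *Spink1* stood at 3558 and 4718 CPM. However, 48 tdTom+ and 49 tdTom- gated cells also held a UMI of *Cdx2* or *Cdx4*, the homeobox factors of the midgut, hindgut and posterior body. Taken over the whole gate, *Cdx2* stood at 96.8 and 125 CPM, close to the 84.2 and 84.9 CPM of the rest of the embryo, and 0 of the 4 midgut and hindgut markers (*Cdx1*, *Cdx2*, *Cdx4*, *Hoxb9*) was past 2-fold lower.

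Such a UMI can also be free RNA. After thinning each cell to 10000 spliced UMIs, *Cdx2* was found in 30.8% and 27.8% of gated cells and in 7.36% and 6.15% of endothelial cells. Before thinning, 40 of the 48 and 36 of the 49 gated cells with Cdx held at least 3 *Cdx2* UMIs. A single one was held by 5 and 8, and the median where it was found was 6 and 6. The part of free RNA was not tested.

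The cells with a Cdx UMI carried the transcripts of a more posterior level. *Hoxb9* stood at 104 and 98 CPM in them and at 0.988 and 2.84 CPM in the gated cells without Cdx, and *Hoxa7*, another trunk Hox gene, at 234 and 159 against 0.494 and 4.54 CPM. *T*, the Brachyury factor of the tailbud and notochord, was at 69.5 and 84.8 against 16.3 and 2.27 CPM. Conversely *Nkx2-3* was at 33.3 and 42.4 against 179.7 and 233 CPM, found in 5 of 48 and 4 of 49 cells with Cdx but in 50 of 122 and 58 of 132 without. *Igfbp5*, a secreted binder of insulin-like growth factors, was at 192 and 195 against 1093 and 1047 CPM. Their *Pax9* was also thinner, with a single UMI in 30 of 48 and 29 of 49 cells against 38 of 122 and 44 of 132. They were deeper cells, with a median of 18651.5 and 17388 spliced UMIs against 15741.5 and 12983.5, and Scrublet called 8 of 48 (16.7%) and 5 of 49 (10.2%) of them doublets against 6 of 122 (4.92%) and 1 of 132 (0.758%). The part of depth and of doublets in their passing the gate was not tested. *Pax9* was found in 34.5% and 23.9% of all *Epcam*+ cells that held *Foxa1* or *Foxa2* with a Cdx UMI, and in 48.1% and 49.2% of those without one, whereas it was at 0 and 0.380 CPM in endothelial cells. Levels are therefore given for the whole gate, and for many genes also for the 122 and 132 cells without Cdx.

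**Figure D1:**
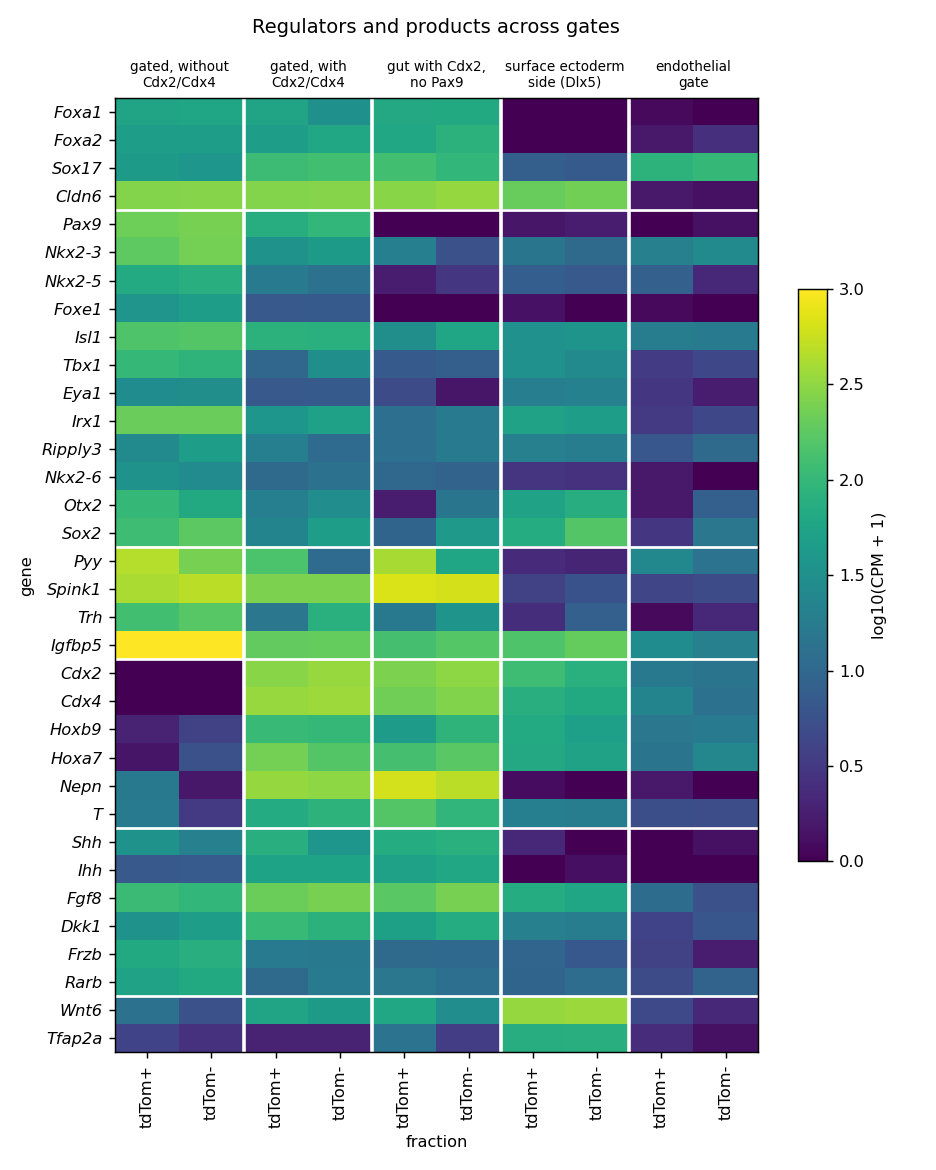
Level of 34 genes (log10 of CPM plus 1, colour) in 5 groups of cells, each split by fraction, with white lines between groups and between sets of genes. The gated cells without a *Cdx2* or *Cdx4* UMI show the higher levels from *Pax9* to *Nkx2-6*, those with one carry *Hoxb9*, *Hoxa7* and *Nepn*, as the *Cdx2*+ gut does, and both share *Foxa1*, *Foxa2* and *Cldn6*. *Pax9* at 0 in the *Cdx2*+ gut and *Foxa1* and *Foxa2* at 0 on the surface ectoderm side were set by the gates of those groups.

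To show what the gated cells have in common beyond the rule, their summed UMIs were set against those of all other cells in each fraction. A gene counted as higher or lower when CPM plus 10 differed at least 2-fold in the same direction in both fractions. Of 6042 genes with at least 100 UMIs over the gated cells, 162 were higher (2.68%) and 23 lower (0.381%). The filter counts UMIs of the gated cells, so genes that are low there were mostly not read, which lowers the count of lower genes and raises the medians of lists. With a filter of 30 UMIs 57 genes were lower, and with 1 CPM added 280 were higher. At the filter of 100 UMIs the median log2 fold over all genes read was 0.05 and 0.07. The 20 genes that led were *Igfbp5*, *Pyy*, *Trh*, *Gpx2*, *Apela*, *Nkx2-3*, *Nepn*, *Emb*, *Cldn6*, *Cpn1*, *Cpm*, *Krt19*, *Cldn7*, *Has2*, *Spink1*, *Crb3*, *Espn*, *Spint2*, *Krt7* and *Irx1*. They were chosen by this fold, so their values describe the gate.

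**Figure D2:**
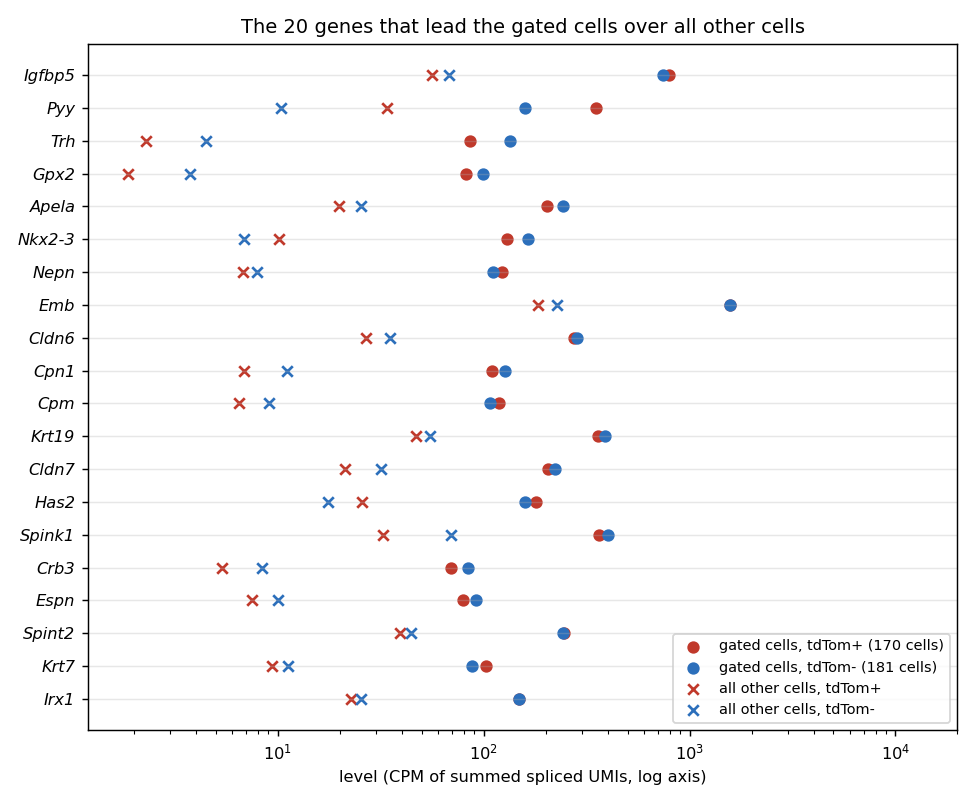
Level (CPM, log axis) of the 20 genes with the largest fold of gated over all other cells, with circles for gated cells, crosses for all other cells, red for tdTom+ and blue for tdTom-. Circles of both colours lie to the right of both crosses for each gene, and the widest gap between red and blue circles is that of *Pyy*, at 352 and 158 CPM.

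Several factors of gut endoderm were higher in the gate than in all other cells, but this was not particular to the gate. The listed endoderm factors summed to 670 and 724 CPM in the gate and 196 and 252 CPM in all other cells. They summed to 690 and 812 CPM in the *Cdx2*+ gut, itself gated on *Foxa1* or *Foxa2*, and 879 and 854 CPM on the visceral endoderm side. The surface ectoderm side, at 373 and 496 CPM, and endothelial cells, at 139 and 174 CPM, were lower. Of 15 listed endoderm factors 7 had enough UMIs, 4 of them were higher, with a median log2 fold of 1.83 and 1.87. *Foxa1*, a forkhead pioneer factor, stood at 55.8 and 47.6 CPM against 2.44 and 3.11, and *Foxa2*, its close relative, at 46.3 and 52 against 4.46 and 6.92. *Foxa2* was at 47 and 60.6 CPM in gated cells with Cdx and at 45.9 and 47.1 CPM in those without. After thinning, *Foxa1* was found in 33.6% and 29.2% and *Foxa2* in 37% and 31.9% of gated cells, so each was without a UMI in most of them. *Sox17*, an endoderm factor that endothelium also uses, stood at 66 and 67.6 CPM, but at 112 and 123 CPM in the cells with Cdx and 42.5 and 36.3 CPM in those without. The claudin *Cldn6*, a tight junction protein of embryonic epithelia, was at 274 and 285 CPM and was found in 96.5% and 93.4% of cells. The 3 listed endoderm factors that were not past 2-fold in both fractions were *Gata6*, *Otx2* and *Sox2*, at 33.8 and 36.3, 71.2 and 52.3 and 83.7 and 129 CPM.

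The regulators of the pharynx formed the second layer. Of 26 listed pharyngeal transcription factors 16 were read, *Pax9* of the rule left out, and 9 were higher (median log2 fold 1.24 and 1.42). Among them were *Eya1*, *Foxe1*, *Irx1*, *Isl1*, *Nkx2-3*, *Nkx2-6*, *Ripply3* and *Tbx1*. *Irx1*, an Iroquois homeobox factor, was the highest of them outside the markers, at 149 and 148 CPM against 22.6 and 25.3. *Isl1*, a LIM homeobox factor of pharyngeal endoderm and of heart progenitors, stood at 126 and 128 CPM against 28.2 and 21.3. *Tbx1*, the T-box factor needed for pouch outgrowth, stood at 67.9 and 66.9 against 11.6 and 11.7 CPM. *Foxe1*, a forkhead factor of the thyroid and pharyngeal floor, was scarce elsewhere, with 25.9 and 31.6 CPM inside and 0.406 and 0.466 CPM outside. *Eya1*, a transcriptional coactivator of pouches and placodes, stood at 20.3 and 21.1 CPM. All 9 were lower in the cells with Cdx in both fractions. In the cells without Cdx, *Irx1* reached 206 and 203 CPM, *Isl1* 148 and 156 CPM, *Tbx1* 97.8 and 87.4 CPM and *Foxe1* 36 and 46 CPM.

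Several listed genes of later organs were absent or rare. The thymus factor *Foxn1*, the parathyroid factor *Gcm2* and the pouch Hox gene *Hoxa3* were at 0 UMIs in the gated cells of both fractions. Of 13 listed organ bud genes, *Alb*, *Neurog3*, *Onecut1*, *Ptf1a* and *Sftpc* were at 0 as well, and *Sox9* alone had enough UMIs, at 30.8 and 30.2 CPM against 26 and 27.6. The organ bud list as a whole was not lower in the gate, where it summed to 52.8 and 63.2 CPM against 44.1 and 51.4 CPM elsewhere. In the cells with Cdx it summed to 65.5 and 92.9 CPM. *Nkx2-1*, the factor of thyroid and lung buds, gave 18 UMIs over both fractions. *Hhex*, a factor of thyroid and liver buds, gave 21, or 2.63 and 4.73 CPM, below the 12.2 and 14.8 CPM of endothelial cells, which express it themselves. *Pax1*, the partner of *Pax9* in later pouches, gave 19.

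Secreted products gave 6 of the 162 higher genes. Of 11 listed products 8 had enough UMIs and 6 were higher (*Igfbp5*, *Pyy*, *Spink1*, *Trh*, the adhesion protein *Vtn* and the membrane carboxypeptidase *Cpm*), with a median log2 fold of 2.97 and 2.51. The 10 outside the rule summed to 1763 and 1625 CPM in the gate, which was not particular to it, as they summed to 1550 and 1199 CPM in the *Cdx2*+ gut and 6581 and 9068 CPM on the visceral endoderm side. *Igfbp5* led all genes at 791 and 740.4 CPM against 56.4 and 68 and was found in 99.2% and 97.7% of the cells without Cdx. *Trh*, the precursor of thyrotropin-releasing hormone, stood at 86.3 and 134 against 2.30 and 4.49 CPM, but in 40.6% and 36.5% of cells only, and at 122 and 165 CPM without Cdx against 14.7 and 79.8 with it. *Pyy* stood at 458 and 241 CPM without Cdx and 141 and 10.1 with it, where it was found in 8 of 48 and 5 of 49 cells and 140 of its 144 tdTom+ UMIs lay in 5 cells. *Spink1* was found in 74.7% and 64.6% of cells and did not separate the cells with Cdx, at 258 and 255 CPM, from those without, at 418 and 487 CPM, as sharply as *Igfbp5* did. It was higher still in the *Cdx2*+ gut, at 674 and 647 CPM. *Apela*, a ligand of the apelin receptor, likewise belonged more to the posterior cells, with 403 and 401 CPM against 101 and 156.

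2 further leading genes divided the gate in the same way. *Nepn*, a leucine-rich repeat proteoglycan, stood at 123 and 111 CPM over the gate, but at 337 and 308 CPM with Cdx and 15.3 and 0.568 CPM without, and at 628 and 482 CPM in the *Cdx2*+ gut. Its lead over the embryo therefore rests mainly on the cells with Cdx, and 216 of its 375 UMIs and 254 of its 306 lay in the 5 richest cells of each fraction. *Has2*, a hyaluronan synthase, was the reverse, with 250.8 and 229 CPM without Cdx, 37.2 and 31.3 CPM with it and 12.9 and 12.1 CPM in the *Cdx2*+ gut. *Cpn1*, the catalytic subunit of carboxypeptidase N, stood on both sides, at 161 and 199 and at 83.9 and 86.9 CPM.

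Since the Foxa factors were found on both sides of this divide, the windows around the start sites of the leading genes were read for 2 forms of the forkhead core, TGTTTAC and TGTTTGC, on both strands. These forms differ in 1 letter and do not overlap. Windows of 250 bases before to 50 after each start (RefSeq, GRCm38.p6) existed for 16 of the 20 leading genes, and those of *Apela*, *Cpn1*, *Espn* and *Nepn* held a form. Of all 32851 windows 8.48% did, and of 27025 genes 9.47% had such a window. The windows of *Cpn1* (chr19:43986471-43986770, minus strand) and of *Nepn* (chr10:52391358-52391657, plus strand) held both forms, and that of *Pax9* (chr12:56695221-56695520, plus strand) is shown because the gate rests on the gene. Capitals mark the forms, and a match is a description of the letters only.
Cpn1: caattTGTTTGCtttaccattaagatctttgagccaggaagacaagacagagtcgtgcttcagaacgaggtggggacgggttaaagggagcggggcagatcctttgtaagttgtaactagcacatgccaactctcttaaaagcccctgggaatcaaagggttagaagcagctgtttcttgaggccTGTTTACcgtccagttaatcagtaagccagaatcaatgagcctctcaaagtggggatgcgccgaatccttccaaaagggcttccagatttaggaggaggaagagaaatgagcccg
Nepn: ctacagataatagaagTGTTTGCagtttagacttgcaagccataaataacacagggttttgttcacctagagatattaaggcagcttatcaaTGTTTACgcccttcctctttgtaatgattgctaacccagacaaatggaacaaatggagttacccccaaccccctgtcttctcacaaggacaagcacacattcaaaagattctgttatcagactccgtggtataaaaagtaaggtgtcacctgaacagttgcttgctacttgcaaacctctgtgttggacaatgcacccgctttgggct
Pax9: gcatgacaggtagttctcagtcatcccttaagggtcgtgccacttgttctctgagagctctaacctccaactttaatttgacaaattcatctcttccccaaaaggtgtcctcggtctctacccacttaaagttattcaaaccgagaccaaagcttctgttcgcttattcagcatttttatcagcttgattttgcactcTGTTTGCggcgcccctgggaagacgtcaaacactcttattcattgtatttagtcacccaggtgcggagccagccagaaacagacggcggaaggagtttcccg
In *Cpn1* the forms began 245 and 65 bases before the start site, in *Nepn* 234 and 158 bases before it, and in *Pax9* 52 bases before it.

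The epithelial set followed the gate as a whole. Of 22 listed epithelial genes 17 were read with *Epcam* left out and 13 were higher (*Cdh1*, *Cldn4*, *Cldn7*, *Col4a1*, *Crb3*, *Esrp1*, *Grhl2*, *Krt18*, *Krt19*, *Krt7*, *Ocln*, *Spint1*, *Spint2*), with a median log2 fold of 1.53 and 1.77. *Epcam* was part of the rule, and the rest of this set goes with it in epithelia. *Krt19*, a keratin of simple epithelia, stood at 360.3 and 390.0 CPM, *Cdh1*, the epithelial cadherin, at 61.7 and 60 CPM and *Emb*, a membrane glycoprotein, at 1569.9 and 1569 CPM. Against other *Epcam*+ cells, rather than the whole embryo, 36 genes were higher and 9 lower, and 28 of those 36 were among the 162. Of 15 listed mesenchymal genes 5 were read, with *Twist1* and *Vim* lower and *Fn1*, which basement membranes also hold, higher.

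Signals came next. Of 14 listed hedgehog genes 6 were read, and the ligands *Shh* and *Ihh* were higher. The list as a whole was not particular to the gate, where it summed to 373 and 332 CPM. It summed to 379 and 368 CPM in the *Cdx2*+ gut and to 257 and 268 CPM in all other cells. *Shh* stood at 47.9 and 25.4 CPM against 4.24 and 5.21, and *Ihh* at 22 and 23.3 against 0.861 and 1.88, of which 53.8 and 53.5 CPM in the cells with Cdx and 5.93 and 6.25 in those without. The receptor and target *Ptch1* was at 144 and 135 against 77.8 and 79.2 CPM, with log2 folds of 0.81 and 0.70, short of 2-fold. Of the FGF list 8 of 18 were read, and the feedback and target genes *Dusp6*, *Etv5* and *Spry1* were higher, at 66.3 and 72.7, 33.1 and 39.6 and 35.4 and 68.3 CPM. The ligand *Fgf8* was at 144 and 149 CPM against 53.8 and 72, with log2 folds of 1.27 and 0.96 that put it past 2-fold in tdTom+ and just short of it in tdTom-. The FGF list summed to 584 and 644 CPM in the gate and to 566 and 650 CPM in the *Cdx2*+ gut. In all other cells it summed to 351 and 357 CPM.

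Of the WNT list 11 of 21 were read and 3 were higher, the antagonists *Dkk1* and *Frzb* and the target *Sp5*. *Dkk1* stood at 104 and 83.8 CPM with Cdx and 34.1 and 45.4 without, and *Frzb* the other way round, at 16.6 and 15.2 and 64.7 and 77.2. Of 16 retinoic acid genes 7 were read. The receptor *Rarb*, itself a target of the pathway, was higher at 38.1 and 47.6 against 9.93 and 10.6 CPM, and the binding protein *Crabp1* lower at 166 and 118 against 429 and 501. *Cyp26a1*, which degrades retinoic acid, was at 97.8 and 153 CPM with Cdx and 22.2 and 7.95 without. Of 15 Notch and ephrin genes 7 were read, and *Jag1*, *Efnb2* and *Ephb2* were higher. *Efnb2*, an ephrin ligand, was at 93.8 and 92.6 CPM without Cdx against 16.6 and 9.09 with. Of 19 BMP and TGF-beta genes 7 were read and none was past 2-fold. The fold medians of these 6 lists ran from 0.14 for WNT to 1.03 for FGF in tdTom+, against 0.05 over all genes. In the gate the WNT list summed to 700 and 720 CPM, against 872 and 943 CPM in the *Cdx2*+ gut. The retinoic acid list summed to 768 and 813 CPM against 859 and 857. The BMP and TGF-beta list summed to 1100 and 1186 CPM against 1246 and 1531. Only the Notch and ephrin list was above that gut in both fractions, at 347 and 375 CPM against 282 and 295.

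Markers of the other cell types that could enter the gate were low for some types and not for others. *Tfap2a*, a defining factor of surface ectoderm, was at 2.30 and 1.45 CPM against 72 and 74.7 on the surface ectoderm side, *Trp63* was at 0, and *Wnt6* was at 26.9 and 18.2 against 330.1 and 348 CPM. *Foxd3* of the neural crest was at 0 UMIs, and the 4 neural crest markers summed to 44.3 and 24 CPM against 173 and 147 CPM elsewhere. Of the 4 notochord markers *Noto* was at 0, but their sum, mostly T, was 40.7 and 39.6 CPM against 22.9 and 27.6 CPM elsewhere, and 74.3 and 90.9 CPM in the cells with Cdx. The 4 markers of extraembryonic ectoderm summed to 14.4 and 58.9 CPM against 35.1 and 58.7 CPM elsewhere. The part of such cells in the results was not tested. *Twist1*, *Actc1* and *Myl7* were past 2-fold lower than in the embryo at large, and the summed level of the 4 cardiac markers was 75.5 and 122 CPM against 1458 and 1054 CPM elsewhere. The summed level of the 5 endothelial markers was 8.20 and 11.6 CPM. Of the 5 markers of pharyngeal mesoderm, *Isl1* and *Tbx1* were higher, and of the 4 of placodes 2 were, *Eya1* among them. *Isl1*, *Tbx1* and *Eya1* stand on the pharyngeal list too.

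The gate was set beside the *Cdx2*+ gut, 68 tdTom+ and 112 tdTom- cells with *Epcam*, *Foxa1* or *Foxa2* and *Cdx2* but no *Pax9*. The gated cells without Cdx differ from it in the pharyngeal set, with *Tbx1* at 6.06 and 7.07 CPM, *Irx1* at 11.4 and 15.7 CPM and *Foxe1* at 0 and 0 CPM in that gut. *Pyy* did not follow this line in tdTom+, since the *Cdx2*+ gut held 407 and 58.6 CPM. The surface ectoderm side, 383 and 314 *Epcam*+ *Dlx5*+ cells, shared *Eya1* at 18.4 and 19.6 CPM and *Tbx1* at 31.8 and 26.3 CPM with the gate. It was gated on the absence of *Foxa1* and *Foxa2*, and it held 2.82 and 4.78 CPM of *Spink1* and 0 and 0 CPM of *Vtn*.

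Within the gate some genes were found together, in sets that overlapped in part. Each cell was thinned to 10000 spliced UMIs, which 146 and 144 gated cells reached and 24 and 37 did not, and the cells were split by a UMI of 1 gene. Free RNA sets a floor under such shares. The same genes were therefore read in thinned endothelial cells (*Cdh5* and *Pecam1* with no *Epcam*), 231 of 248 and 130 of 142 of which were deep enough. The median depth of all 248 and 142 was 18317.5 and 16994.5 UMIs. Endothelial shares can also include what these cells express themselves, so they need not be free RNA alone. *Nkx2-3* was found in 28.8% and 36.1% of gated cells and 11.3% and 20% of endothelial cells, and *Pyy* in 32.9% and 28.5% against 10.4% and 7.69%. *Otx2* was found in 29.5% and 26.4% against 0.433% and 3.08%, *Tbx1* in 34.2% and 29.2% against 3.03% and 3.85%, and *Hoxb1* in 12.3% and 9.72% against 3.03% and 0.769%. *Hhex*, at 4.11% and 2.78%, lay below its endothelial share of 12.6% and 17.7%, and *Pax1* and *Nkx2-1* were each in 3 to 6 cells a fraction.

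The first set was led by *Nkx2-5*, a homeobox factor of the heart and of the pharyngeal floor. Of the 22 and 31 cells with *Nkx2-5*, 21 and 29 also held *Nkx2-3*, against 16.9% and 20.4% of the cells without. *Foxe1* was found in 13 of 22 and 14 of 31 of them, against 4.84% and 1.77% of the rest. The 5 genes that led this split were *Foxe1*, *Nkx2-3*, *Col11a1*, *Pcdh7* and *Tbx3*, with *Nkx2-3* at 500 and 603 CPM with *Nkx2-5* and 54.8 and 81.4 CPM without. *Tbx3*, a T-box factor, stood at 186 and 135 against 42.7 and 28.3 CPM. *Otx2*, the homeobox factor of the foremost endoderm and of the forebrain, overlapped with this set and was found in 15 of 22 and 16 of 31 of its cells. The split by *Otx2* was led by *Nkx2-5*, *Lypd2*, *Tnnt1*, *Igfbp5* and *Col11a1*, with *Igfbp5* at 1547 and 1495 CPM against 469 and 496. The 4 and 3 cells with *Nkx2-1* all held *Nkx2-3*. *Cdx2* was nearly absent from the set, found in 2 of 42 and 1 of 52 cells with *Nkx2-3*.

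The second set was led by *Hoxb1*, the Hox gene of the hindbrain and foregut level that retinoic acid induces. Of the 18 and 14 cells with *Hoxb1*, 15 and 12 held *Tbx1* and 16 and 12 held *Pyy*, against 27.3% and 23.1% and against 25% and 22.3% of the cells without. *Pyy* was not particular to this set. It was also found in 15 of 22 and 16 of 31 cells with *Nkx2-5*, against 26.6% and 22.1% of those without. *Hoxb1* was found in 4 of 42 and 5 of 52 cells with *Nkx2-3*, against 13.5% and 9.78% of those without. *Otx2* and *Hoxb1* were not found together in any thinned cell: 0 of 43 and 0 of 38 cells with *Otx2* held a *Hoxb1* UMI, which allows a share of cells with a *Hoxb1* UMI of up to 6.98% and 7.89%. A cell without a UMI at this depth may still transcribe the gene. The 5 leaders of the *Hoxb1* split were *Hotairm1*, *Arg1*, *Pyy*, *Prrx2* and *Tbx1*, and 3 of the 5 leaders of the *Tbx1* split and 3 of the 5 of the *Pyy* split were again *Hoxb1*, *Hotairm1* and *Arg1*. *Pyy* reached 1217 and 614 CPM in the cells with *Hoxb1* and 230.5 and 131 CPM in those without. *Arg1*, arginase 1, stood at 294 and 314 against 48.4 and 48.5 CPM. *Prrx2*, a homeobox factor better known from mesenchyme, stood at 228 and 314 against 43.8 and 49.2 CPM. *Hotairm1* is an antisense transcript, and as the sources used here do not say whether strand was counted, its UMIs may in part be those of a neighbouring gene.

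The third set was that of *Cdx2*. Its split was led by *Hoxaas3*, *Cdx4*, *Epha5*, *Hoxb8* and *Nepn*, and *Cdx2* was found in 1 of 18 and 1 of 14 cells with *Hoxb1* and in 3 of 43 and 2 of 38 with *Otx2*. *Fgf8* was found in 36.3% and 43.1% of gated cells, and its split was led by *Rspo3*, *Epha5*, *Hoxaas3*, *Cyp26a1* and *Fgf17*. Of these, *Epha5* and *Hoxaas3* also led the *Cdx2* split. *Fgf8* was found in 22.7% and 22.6% of cells with *Nkx2-5*, against 38.7% and 48.7% of those without. With *Nkx2-3* the fractions parted, at 42.9% and 38.5% against 33.7% and 45.7%. The *Shh* split was led by *Dio3*, *Krtap17-1*, *Cxcl12*, *Apom* and *Kitl*, with *Kitl*, the ligand of *Kit*, at 250 and 262 CPM against 82.7 and 87.0. *Spink1* went with *Nepn*, *Pyy*, *Actc1*, *Ttr* and *Car4*. *Pyy* and *Spink1* overlapped, with *Spink1* found in 42 of 48 and 34 of 41 cells with *Pyy* against 53.1% and 48.5% of those without. Leaders were picked by their fold, so each split describes these cells, which share 1 library per fraction.

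**Figure D3:**
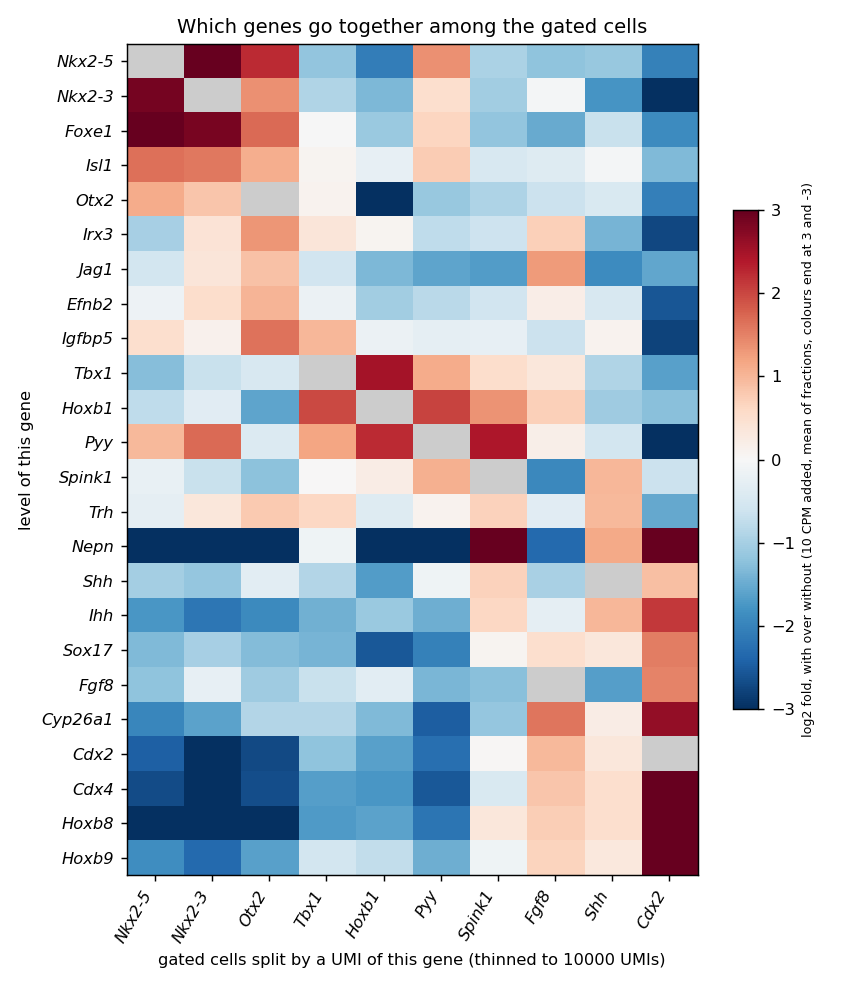
Log2 fold (10 CPM added, mean of both fractions, colours end at 3 and -3) of 24 genes in gated cells that hold a UMI of the gene named on the horizontal axis over those that do not, after thinning to 10000 UMIs. Grey marks a gene against itself. The *Nkx2-5*, *Nkx2-3* and *Otx2* columns are red for *Foxe1* and *Isl1* and blue for *Cdx2*, *Cdx4* and *Hoxb8*, the *Tbx1* and *Hoxb1* columns are red for each other and for *Pyy*, and the *Cdx2* column is blue for *Nkx2-3*, *Otx2* and *Igfbp5*.

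Unspliced molecules, which hold intron sequence, made up 15.2% and 15.1% of all UMIs in the gated cells and 13.04% and 13.4% in the others. Per gene the share ranged widely. *Pax9* had 19.3% and 16.3% unspliced, *Ptch1* 49.3% and 49.0%, and *Igfbp5* 6.41% and 6.6%. *Pyy* had 0.464% and 0.911%, and *Nkx2-5* had 0 of 153 and 0 of 145 molecules unspliced. Shares in the 2 fractions were close for each of these genes beside the spread between genes, and intron length and sites of internal priming, which also set them, were not measured. Of the 14 S phase and the 14 G2/M genes none was past 2-fold in the gate. At 10000 UMIs the median cell held 24 and 25 S phase UMIs against 26 and 26 in other cells, and 30 and 32.5 G2/M UMIs against 25 and 27.

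The comparison of the fractions asked which genes differed between *Gata1*- tdTom+ and wildtype tdTom- cells of the same gate. Of 6049 genes, 6 were at least 2-fold higher in tdTom+ (0.0992%) and 18 lower (0.298%), and the median log2 fold was -0.01. *Hba-x*, *Hbb-y*, *Hbb-bh1* and *Ttr* among the 18 are genes of the rule. Without those of the rule 6 (0.0993%) and 14 (0.232%) of 6042 genes were left. All 20 had the same sign in the other cells of the embryo, and 5 of the 6 and 10 of the 14 were past 2-fold there too. The higher genes were *Erdr1*, *Pyy*, *Pitx1*, *Mest*, *Impact* and *Peg3*. *Erdr1* lies in the pseudoautosomal region and has near-identical copies, so its count is uncertain. The lower genes were *Xist*, *Grb10*, *Cdkn1c*, *Trap1a*, *Hba-x*, *Phlda2*, *Rhox5*, *Hbb-y*, *H13*, *Igf2r*, *Igf2*, *Hbb-bh1*, *Apom*, *Ndufb5*, *Hba-a1*, *Wfdc2*, *Ttr* and *Pik3ca*. None of the 16 pharyngeal factors, 7 endoderm factors or 17 epithelial genes that were read was among them. As only 0.0992% and 0.298% of all genes read were called, this count is near that share and says little about these genes. Differences short of 2-fold are not covered by it.

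**Figure D4:**
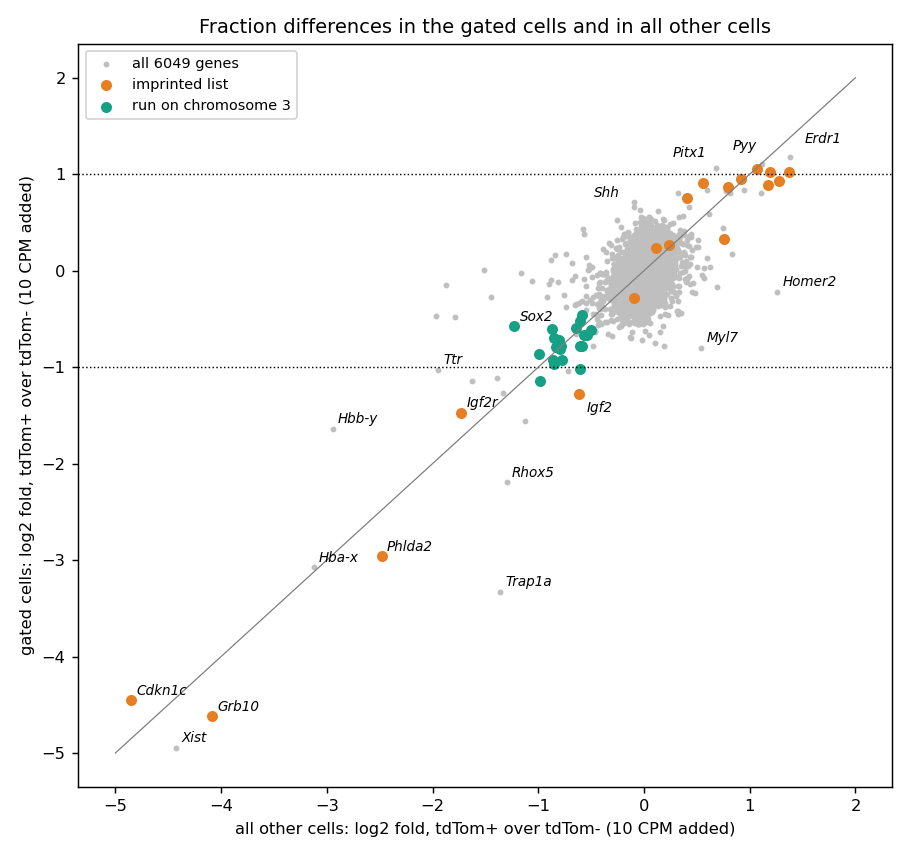
Log2 fold of tdTom+ over tdTom- (10 CPM added) of each of 6049 genes in the gated cells (vertical axis) against all other cells (horizontal axis), with imprinted genes in orange, the run of genes on chromosome 3 in green, the diagonal as a grey line and the 2-fold limits as dotted lines. The orange and green points lie near the diagonal, while *Trap1a* and *Rhox5* lie below it and *Hbb-y* and *Ttr* above it.

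Several of them were imprinted genes, which are transcribed from 1 parental copy. Of the 18 listed imprinted genes read 3 were higher and 5 lower, and *H13*, which is imprinted as well, was not on the list. Of the 199 X-linked genes read 3 were called, namely *Xist*, *Trap1a* and *Rhox5*. *Grb10*, an adaptor that restrains growth signalling, stood at 8.20 and 437 CPM, a counted log2 fold of -5.73 (-6.37 to -5.16), and was found in 5.29% and 97.8% of cells. *Cdkn1c*, an inhibitor of the cell cycle, stood at 7.55 and 375 CPM, and *Phlda2*, a growth regulator from the same cluster, at 13.5 and 173. The growth factor *Igf2* stood at 136 and 344 CPM and its clearance receptor *Igf2r* at 26.3 and 90.5. In the other direction *Peg3* stood at 1682 and 825 CPM, *Mest* at 708 and 337 and *Impact* at 96.1 and 42.2. All of these differed in the same direction in the other cells, with log2 folds (10 CPM added) in the gate and elsewhere of -4.62 and -4.09 for *Grb10*, -4.45 and -4.85 for *Cdkn1c* and 1.02 and 1.19 for *Peg3*. Over the 18 imprinted genes read, the median log2 fold was 0.54 in the gate and 0.49 elsewhere. The next 4 genes towards tdTom+, short of 2-fold, were imprinted too, namely *Kcnq1ot1* at 526 and 267 CPM, *Peg10* at 120.1 and 58.5, *Nnat* at 113 and 55.3 and *Slc38a4* at 83.3 and 40.3. *Kcnq1ot1* lies antisense to Kcnq1, so its UMIs are uncertain in the way given for *Hotairm1*. With unspliced molecules added, the fold of *Igf2r* shrank from -1.47 to -0.18 on the log2 scale. *Xist*, the transcript that silences 1 X chromosome in females, stood at 2.30 and 368 CPM, found in 1.18% and 53% of cells. The clone is of a male line, while the sources used here do not give the sex of the hosts. The 2 Y-linked genes read, *Ddx3y* and *Eif2s3y*, were higher in tdTom+ gated cells but short of 2-fold.

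Embryonic globins and visceral transcripts, which the rule limits, were lower in tdTom+ as well. *Hba-x* stood at 41.7 and 424 CPM in the gate. In endothelial cells, whose gate has no globin limit, it stood at 163 and 2808 CPM, which need not be free RNA alone. *Hbb-y* stood at 31.2 and 118 CPM in the gate. The rule caps these transcripts and they are no finding. *Hba-a1*, a globin gene outside the rule, is counted among the lower genes left without those of the rule. It was no longer past 2-fold with the endothelial level subtracted. The part of free RNA in its difference was not tested. *Ttr*, also of the rule, stood at 33.8 and 79.2 CPM, and its difference was no longer past 2-fold, or *Ttr* had too few UMIs, under 7 of the 11 alternatives, among them leaving out doublets, leaving out the cells with *Trap1a* and equal weight per cell.

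*Pyy* was the only gene of the pharyngeal markers to differ, at 352 and 158 CPM, a counted log2 fold of 1.15 (0.99 to 1.32). It was found in 63 of 170 and 55 of 181 cells, so the fractions differed in level per cell more than in the share of cells, with a median of 8 and 4 UMIs where it was found. The 5 richest cells held 395 of 1072 and 182 of 435 UMIs. The log2 fold was no longer past 2-fold without the cells with Cdx (0.90), without those with *Trap1a* (0.99) or with at least 2 *Pax9* UMIs (0.93). In the other cells it was 1.12. *Pitx1*, a homeobox factor of the stomodeum and hindlimb, rested on few cells too, with 114 and 35 UMIs in 27 and 15 cells. Its log2 fold of 1.06 fell to 0.91 with at least 10 *Epcam* UMIs. It had fewer than 100 UMIs without doublets (log2 fold 1.11) or without the cells with Cdx (log2 fold 1.28).

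*Shh* stood apart in another way. It was at 47.9 and 25.4 CPM, a counted log2 fold of 0.91 (0.49 to 1.35), while the other cells held 4.24 and 5.21 CPM. After thinning it was found in 28.8% (21.6 to 36.8) of tdTom+ and 14.6% (9.26 to 21.4) of tdTom- gated cells, against 0 and 0.769% of endothelial cells. With 10 CPM added the fold was 0.71 on the log2 scale, short of 2-fold, and the values of *Ihh*, at 22 and 23.3 CPM, and *Ptch1*, at 144 and 135 CPM, lay closer together. It too followed the Cdx divide, at 77.3 and 36.4 CPM with Cdx and 33.1 and 19.3 CPM without, where its log2 fold was 0.56. A spread between embryos or sorts cannot be read from 1 library each. *Nkx2-3* leaned the other way, at 131 and 164 CPM (counted log2 fold -0.33 (-0.53 to -0.13)), as did *Trh*, at 86.3 and 134 CPM (-0.64 (-0.87 to -0.41)).

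*Trap1a*, an X-linked tumour rejection antigen gene of extraembryonic lineages, marked a set of tdTom- cells. It was found in 0 of 170 tdTom+ gated cells, which allows a share of cells with a UMI of up to 1.76% by the limit of 3 counts and 2.15% by the exact interval, and in 26 of 181 tdTom- gated cells, or 14.4% (9.60 to 20.3). Its 249 UMIs in tdTom- reached 22 in a cell, and against the floor of 3 counts over the tdTom+ gated cells its level was at least 91.9-fold lower there. That bound takes the UMIs as independent, although they lay in 26 cells. The shares of cells bound the difference less tightly. In endothelial cells it was found in 7 of 248 and 7 of 142, never with more than 2 UMIs, and 21 of the 26 gated cells held at least 3. *Rhox5*, an X-linked homeobox gene of the same lineages, was found in 17 of the 26, and stood at 330 CPM in cells with *Trap1a* and 6.25 CPM in tdTom- gated cells without.

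The cells with *Trap1a* were not typical of the gate. *Trh* stood at 424 CPM in them against 92.1 CPM in the other tdTom- gated cells and *Spink1* at 786 against 347 CPM. *Nkx2-3* stood at 31.3 against 184 CPM and *Nkx2-5* at 2.85 against 60 CPM. *Foxa1* was alike, at 51.3 and 47.1 CPM, and *Pax9* stood at 162 and 193 CPM. *Ttr*, the transthyretin of visceral endoderm that the rule limits, stood at 407 and 31.3 CPM. They were shallower, with a median of 10564 against 14672 UMIs. 12 of the 26 held a Cdx UMI. Cells with *Trap1a* were more frequent on the visceral endoderm side, 34 of 38 tdTom- cells, and in the *Cdx2*+ gut there were 17 of 112 tdTom- cells against 2 of 68 tdTom+ cells. Only 3 tdTom+ cells lay on the visceral endoderm side at all, all 3 with *Trap1a*. Without the 26 cells the log2 fold of *Rhox5* went from -2.19 to -0.36 and that of *Trh* from -0.59 to -0.08. *Rhox5* and *Trap1a* also fell below 100 UMIs with at least 2 *Pax9* UMIs, where the log2 fold of *Trap1a* was -2.55 and that of *Rhox5* -1.29.

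One stretch of the genome differed both in the gate and outside it. On chromosome 3, 21 genes in a row among those read, from *Pik3ca* to *Sclt1* (chr3:32397671-41742514 in GRCm38, 9.34 megabases), were all lower in tdTom+ gated cells, by log2 folds from -0.46 to -1.14 with a median of -0.78. The run was cut at a log2 fold of -0.4, so the common sign and the weaker end of this range follow from that choice. Their summed UMIs were 3137 and 5467, a log2 fold of -0.95 (-1.01 to -0.89) after scaling to the summed UMIs of all genes. In the other cells of the embryo the median over the same genes was also -0.78, whereas the other 274 genes read on chromosome 3 had a median of -0.0048 in the gate. The neighbours on either side, *Cldn11* and *Noct*, stood at -0.25 and -0.06 in the gate, respectively. *Noct*, the next gene read, starts at chr3:51224447, so the end of the stretch on that side is not closely set. The run holds *Sox2*, a factor of anterior foregut and neural tissue, at 83.7 and 129 CPM, and *Spry1*, the FGF antagonist, at 35.4 and 68.3 CPM, together with *Ndufb5*, *Actl6a*, *Fxr1*, *Ccna2* and *Plk4*. A lower *Sox2* or *Spry1* in tdTom+ gated cells therefore stands beside 19 neighbours that were lower too, and the cause was not tested. This run was noticed in the data and then described on the same data.

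**Figure D5:**
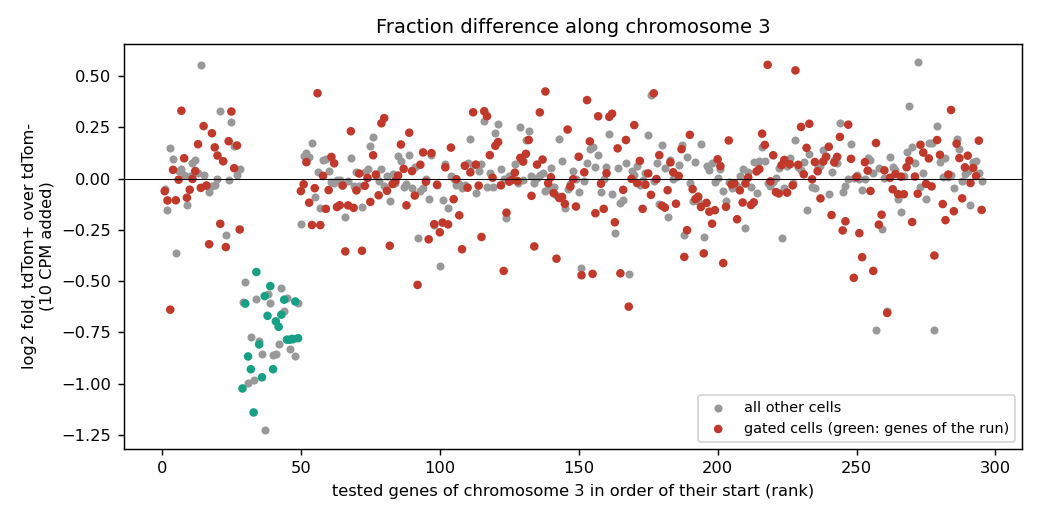
Log2 fold of tdTom+ over tdTom- (10 CPM added) of the 295 genes read on chromosome 3, in order of their start, in gated cells (red, with the 21 genes of the run in green) and in all other cells (grey). The green points and the grey points of the same genes lie between -0.46 and -1.23, while most points on both sides scatter around 0 and a few of them reach this range.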

How the data were processed

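Droplet-based scRNA-Seq was available for 1 tdTom+ and 1 tdTom- library from 6 pooled chimeric embryos. The authors mapped reads to mm10 with Cell Ranger 3.0.2, called and filtered cells and used velocyto to part spliced from unspliced molecules. For both layers the authors deposited tables of raw UMI counts (18233 cells, 29453 genes), which were not normalized. They also deposited the percent of mitochondrial UMIs per cell. Every value of both count layers was tested and 0 were not whole. The tables hold more cells of each fraction than the study counts after quality control and assignment to cell types, and which cells it left out is not given in the sources used here, so all cells of the tables were used.

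Gated cells were found by the rule given in the report, in each library apart. The members and the gene lists were chosen with earlier results of these data known. Spliced UMIs were summed over cells and given as CPM. A gene was read when the gated cells held at least 100 UMIs, and counted when CPM plus 10 differed at least 2-fold. Folds called counted have no CPM added and an exact conditional 95% interval. Shares have Clopper-Pearson intervals, and a count of 0 was bounded by 3 counts. For levels within the gate each cell was thinned to 10000 spliced UMIs. Doublets were called with Scrublet (scanpy 1.11.5) in each library with 30 components, and kept. Python 3.11.15, numpy 2.4.6, scipy 1.17.1, pandas 2.3.3 and matplotlib 3.10.9 were used. The code for folds and intervals was also tested on counts simulated from the levels of the gated cells, after these were known. There 95.5% of the intervals held the true fold. Of 200 genes changed 3-fold, 88.5% were past 2-fold on the right side, and 0 unchanged genes were. The simulation held no spread between cells. The study tested cells with a Wilcoxon test, which was not repeated because cells of 1 library are not replicates.

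The genes named are *Gata1*, those of the rule and the lists, the 20 with the largest fold over all other cells in the lower of both fractions, the 10 per direction with the largest fold between fractions, the 5 per direction whose fold differs most from that in other cells, and the 5 that lead each split. Genes with fewer than 10 CPM are named where they define a cell type or an organ. Neighbours, genes of the chromosome 3 run and genes found with *Trap1a* were named after their values were seen. Alternatives were tried for the *Epcam* and *Pax9* minimum, doublets, the layer, equal weight per cell, the scaling, the filter, the CPM added, subtraction of the endothelial level and, chosen after seeing the data, leaving out cells with a *Cdx2*, *Cdx4* or *Trap1a* UMI. Some genes that these rules name are not reported here.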

Additional observations from a re-analysis of the deposited data

Results flagged for a closer look

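*Myl7*, the atrial myosin light chain, had a log2 fold of tdTom+ over tdTom- of -0.80 in the gated cells and 0.54 in all other cells (10 CPM added), that is opposite signs. It stood at 33.8 and 66.2 CPM in the gate and at 609 and 416 CPM outside it, where heart cells are included. In tdTom- 139 of its 182 gated UMIs lay in the 5 richest cells, against 38 of 103 in tdTom+, and the fold ranged widely over the alternatives: -2.48 with the endothelial level subtracted, -1.28 with at least 10 *Epcam* UMIs, -0.75 without doublets, -0.41 when each cell weighed the same and 0.36, the sign of the other cells, with at least 2 *Pax9* UMIs. The difference between the gate and the other cells was not tested.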

How the results depend on the processing

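The share of gated cells followed the rule more than the fraction. It was 1.49% and 1.56% with at least 10 *Epcam* UMIs, 1.14% and 1.17% with at least 2 *Pax9* UMIs, 1.23% and 1.40% when the gate was set after thinning, and 1.36% and 1.43% without cells holding a *Cdx2* or *Cdx4* UMI. Under the other settings (at least 3 *Epcam* UMIs, doublets left out, both layers) it ran from 1.81% to 1.97% and from 2.01% to 2.12%. Between fractions there were 5 to 9 genes higher and 13 to 24 lower, except 13 higher with 1 CPM added, and 176 and 218 with the endothelial level subtracted, which also takes away what endothelial cells express themselves. These were not always the same genes: 4 of the 6 higher and 12 of the 18 lower were shared with at least 2 *Pax9* UMIs, 3 and 13 without the cells with Cdx, and 3 and 7 with the endothelial level subtracted. *Ttr*, *Pik3ca*, *Apom*, *Pitx1*, *Impact*, *Pyy*, *Hba-a1*, *Rhox5*, *Trap1a* and *Igf2r* were each lost under 2 alternatives or more, in part because they had fewer than 100 UMIs. Against all other cells 57 genes were lower with a filter of 30 UMIs, 280 higher with 1 CPM added, 36 higher and 9 lower against cells with at least 5 *Epcam* UMIs, and 15 lower without the cells with Cdx, where fewer genes had enough UMIs. There were 399 values of 40 single genes under 10 alternatives. Of these, 354 moved by no more than the reach of the gene's counted interval from its middle, and 42 by more. The other 3 are of genes past 2-fold that changed sign, with the endothelial level subtracted, namely *Cdkn1c* to 0.37, *Igf2r* to 1.14 and *Impact* to -0.27. *Trap1a*, whose counted interval has an open end, was given a fixed limit. Counted intervals have no CPM added, while these values have. Of the values of genes short of 2-fold 12 had the opposite sign, among them *Myl7*, *Spink1*, *Fgf8* and *Foxa1*. Leaving out cells with a *Cdx2*, *Cdx4* or *Trap1a* UMI, and following single genes with at least 2 *Pax9* UMIs, with 1 CPM added and with the endothelial level subtracted, was chosen after seeing the data. Depth limits scarce transcripts such as *Pax9*, *Nkx2-1* and *Hhex*. No paired analysis was possible because each fraction has 1 library, and no replicate could be left out for the same reason.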

Other observations

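Some genes differed between the fractions in another way than in the remaining embryo. Of the pharyngeal markers, *Nkx2-3* had a log2 fold (10 CPM added) of -0.31 in the gate and 0.26 elsewhere, and *Spink1* of -0.14 and -0.89. These gaps were not tested. *Homer2*, a synaptic scaffold protein, stood at 87.6 and 104 CPM in the gate and at 105 and 38.1 CPM outside it, so its fraction difference outside the gate (log2 fold 1.26) was not seen inside (-0.22). Within the gate it stood at 115 and 139.7 CPM in cells without Cdx and 33.3 and 39.4 CPM in cells with Cdx. *Tfpi*, an inhibitor of coagulation, stood at 11.5 and 26.9 CPM in the gate, with a log2 fold of -0.78 there and 0.19 elsewhere. The mitochondrial iron importer *Slc25a37* and *Mgst3*, a glutathione transferase, had log2 folds of -1.97 and -1.79 in the other cells and of -0.47 and -0.48 in the gate.

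*Wfdc2*, a secreted protease inhibitor of epithelia, was lower in tdTom+ gated cells, at 212 and 446 CPM, and on the surface ectoderm side, at 341 and 530.0 CPM, with a log2 fold of -0.72 over all other cells. It belongs to none of the imprinted or sex-linked genes listed, nor to the run on chromosome 3.

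Among the GATA factors, which share the DNA motif read by *Gata1*, *Gata3* stood at 39.4 and 37.1 CPM in the gate against 10.1 and 8.81 elsewhere and *Gata6* at 33.8 and 36.3 against 57.4 and 41.6. *Gata6* was higher in the cells with Cdx, at 53.8 and 57.6 CPM, than in those without, at 23.7 and 24.4 CPM. Neither differed 2-fold between the fractions.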
